A study of Mus musculus with 6 samples.

Results

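Bone marrow macrophages of mice were compared 4 days after intravenous injection of Raji cells (a line from a human Burkitt lymphoma) with those of mice left ungrafted. The comparison took both day 4 libraries and both day 0 libraries, 4 of the 6 libraries of the study, and all 17528 listed genes, of which 14304 had enough reads to be tested. All animals were BALB/c RAG2-/-γc-/- mice, which carry null alleles of Rag2 and of the common gamma chain of cytokine receptors and so make no mature T, B or NK cells, and this holds for grafted and ungrafted animals alike. The day 4 group were engrafted mice and the day 0 group were non-engrafted mice, with 2 libraries each, named A and B after the deposited columns. A further group, taken 18 days after engraftment, also had 2 libraries, and its levels are given where they bear on a day 4 change. Cells came from the femur and were sorted for the surface proteins CD11b and F4/80. No ungrafted animals were taken on day 4 after a mock injection, and graft, injection and elapsed time cannot be told apart here. The labels give neither age nor sex and leave it unsaid if libraries A and B are from different animals, so p-values measure spread between libraries alone and that spread may be technical.

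Marrow phagocytes arise from shared progenitors. Granulocyte precursors first make the enzymes of primary granules, such as myeloperoxidase and elastase, then the proteins of secondary granules, and last the surface receptors of mature neutrophils. Classical monocytes, marked by Ccr2 and Ly6C, leave the marrow for inflamed tissue and can become patrolling monocytes, which crawl along vessel walls and carry Cx3cr1 and Ace. Resident marrow macrophages engulf the nuclei of maturing red cells, recycle their iron and carry receptors such as CD163.

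Levels below are reads per 1000000 assigned reads after scaling between libraries (RPM). Reads assigned to listed genes numbered 21815235 and 20383243 at day 4, against 23214553 and 22363811 at day 0. Both gate genes were present. The CD11b gene Itgam stood at 2037 and 2044 RPM at day 4, against 2298 and 2323 RPM at day 0. The F4/80 gene Adgre1 stood at 45.1 and 42.01 RPM at day 4, against 35.3 and 33.9 RPM at day 0. Genes of neutrophil granules were among those with the most reads in every library, and the 23 secondary granule genes alone took 11.01% and 11.1% of reads at day 4, against 12.2% and 11.96% at day 0. Macrophage genes were present at far lower levels, with Cd68, a lysosomal protein, at 46.3 and 46.5 RPM at day 4, against 34.7 and 38.6 RPM at day 0. The 34 tested resident macrophage genes took 0.115% and 0.112% of reads at day 4, against 0.124% and 0.123% at day 0. In cells sorted as macrophages, the 23 secondary granule genes thus took the larger share of reads. Of these 23, Itgam is a gate gene, and Lyz2, Chil3, Hp and Cd177 are also on the classical monocyte list described below. Lyz2 averaged 14302 RPM at day 4 and 15670 RPM at day 0. Ngp, which is not on that monocyte list, averaged 34226 RPM at day 4 and 39456 RPM at day 0. Of the lymphoid genes, Pax5, Ms4a1, Cd3e, Ncr1 and Gzmb were not among the listed genes. The 9 tested B cell and plasma cell genes took 0.00750% and 0.00731% of reads at day 4, against 0.00573% and 0.00589% at day 0, and the 8 tested T, NK and innate lymphoid genes 0.0252% and 0.0247% at day 4, against 0.0259% and 0.0249% at day 0. The 14 tested stromal and endothelial genes took 0.00720% and 0.00661% of reads at day 4, against 0.00703% and 0.00683% at day 0. In bulk RNA, fewer cells of a type and less RNA per cell cannot be told apart. The genotype genes kept reads in every library and were not called by limma, and since the table gives 1 value over a gene's whole span it cannot show the altered part of either: Il2rg stood at 32.02 and 33.7 RPM at day 4, against 33.7 and 29.6 RPM at day 0, and Rag2 at 2.18 and 2.204 RPM at day 4, against 1.73 and 2.17 RPM at day 0.

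The promoters of 6 genes are shown here because they belong to groups described below, primary granule genes called higher at day 4 and CXC chemokine genes called lower, and were picked with their values known. Each is the 250 bases before the transcription start, 5′ to 3′ on the gene's strand, from RefSeq on build GRCm38.p6, and the 2 motifs were chosen after the sequences were read. In the first 4 the capitals mark AGGAAGT, a sequence of the kind bound by PU.1, a factor of myeloid cells.
Mpo: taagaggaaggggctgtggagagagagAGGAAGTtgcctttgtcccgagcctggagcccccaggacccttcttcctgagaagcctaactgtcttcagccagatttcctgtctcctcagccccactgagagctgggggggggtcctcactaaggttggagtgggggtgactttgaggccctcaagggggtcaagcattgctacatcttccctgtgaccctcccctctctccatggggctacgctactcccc
Elane: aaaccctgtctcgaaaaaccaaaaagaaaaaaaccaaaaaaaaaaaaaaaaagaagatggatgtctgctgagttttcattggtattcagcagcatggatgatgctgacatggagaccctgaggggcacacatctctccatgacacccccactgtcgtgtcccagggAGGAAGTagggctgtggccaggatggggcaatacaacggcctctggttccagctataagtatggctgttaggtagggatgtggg
Prtn3: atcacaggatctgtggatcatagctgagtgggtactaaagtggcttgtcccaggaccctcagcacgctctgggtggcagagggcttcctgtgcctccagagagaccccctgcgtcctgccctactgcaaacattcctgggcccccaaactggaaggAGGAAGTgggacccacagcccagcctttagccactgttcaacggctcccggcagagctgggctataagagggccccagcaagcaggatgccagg
Ctsg: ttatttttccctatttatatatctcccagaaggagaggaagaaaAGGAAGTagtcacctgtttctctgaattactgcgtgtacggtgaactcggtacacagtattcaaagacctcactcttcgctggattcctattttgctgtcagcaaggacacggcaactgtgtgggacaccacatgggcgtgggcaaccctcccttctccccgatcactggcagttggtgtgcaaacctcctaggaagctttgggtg
In the next pair the capitals mark the consensus motif of NF-kB, which matched 2 times in each promoter, on opposite strands of the same overlapping bases.
Cxcl1: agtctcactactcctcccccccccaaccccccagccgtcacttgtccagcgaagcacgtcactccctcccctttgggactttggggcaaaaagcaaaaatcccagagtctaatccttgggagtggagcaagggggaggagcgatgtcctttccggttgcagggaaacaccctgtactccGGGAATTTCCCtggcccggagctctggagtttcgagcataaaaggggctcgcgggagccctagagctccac
Cxcl2: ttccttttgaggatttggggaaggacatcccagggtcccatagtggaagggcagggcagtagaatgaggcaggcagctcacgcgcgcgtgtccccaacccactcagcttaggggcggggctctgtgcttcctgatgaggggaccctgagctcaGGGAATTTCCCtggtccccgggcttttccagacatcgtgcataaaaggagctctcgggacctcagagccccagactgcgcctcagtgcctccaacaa
The stretches lie at chr11:87793534-87793783 (Mpo, plus strand), chr10:79886062-79886311 (Elane, plus strand), chr10:79879417-79879666 (Prtn3, plus strand), chr14:56102575-56102824 (Ctsg, minus strand), chr5:90890995-90891244 (Cxcl1, plus strand) and chr5:90903649-90903898 (Cxcl2, plus strand). Searched on both strands in the same 250 bases, AGGAAGT was found in 2525 of 32851 promoters (7.69%) and in those of 7 of the 16 tested primary granule genes with an entry, and the NF-kB consensus in 1281 of 32851 (3.90%) and in 14 of the 33 tested NF-kB list genes with an entry. Other spellings of the NF-kB motif were also tried. With GGG, any 3 bases and TTCC these counts were 1527 of 32851 (4.65%) and 12 of 33, and with the exact letters seen in Cxcl1 alone they were 28 of 32851 (0.0852%) and 4 of 33. The list counts include the printed genes, and the motifs were chosen after those were read, so the counts cannot test for enrichment. They also count genes with a match in any promoter, while the counts over 32851 are of single promoters. A match is a stretch of letters and was not tested for binding.

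By limma, 1736 genes (12.1% of those tested) passed an adjusted p of 0.05, with 784 higher at day 4 (5.48%) and 952 lower (6.66%). Most changes were small, with a median size of 0.24 on the log2 scale, and 63 genes rose and 28 fell by at least 2-fold. Scaled by library totals alone, the split became 1261 higher and 461 lower, so the direction of small changes depends on the scaling. Calls fell to 1005 without day 0 A and 922 without day 0 B, to 95 on the scale of the deposited values, and to 0 by limma with one prior spread for all levels, where 2454 genes had an unadjusted p under 0.05. In the fits without each of the 4 libraries in turn, 618 genes (4.32%) kept their call, 285 higher (1.99%) and 333 lower (2.33%), and these are called stable calls below. Below, single genes said to rise or fall have stable calls unless another value is given, while counts over a list are of all called genes, with the stable ones given beside them. Of those named, Prtn3, Csf1r, Ccne2, Rab27a, Sirpa, Fcgr3, Gda, Trf, Apoe, Ms4a6d, Cd300ld, Ear1, Fcgr2b, Ifit3, Ctss, Cd274, Scd2 and Neat1 had fractional reads. Such reads can arise where a read matches more than 1 gene. What made them here was not tested, and the levels of these genes carry that uncertainty. In all, 25.6% of tested genes had both day 4 libraries above both day 0 libraries, and 25.3% had them below.

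**Figure D1:**
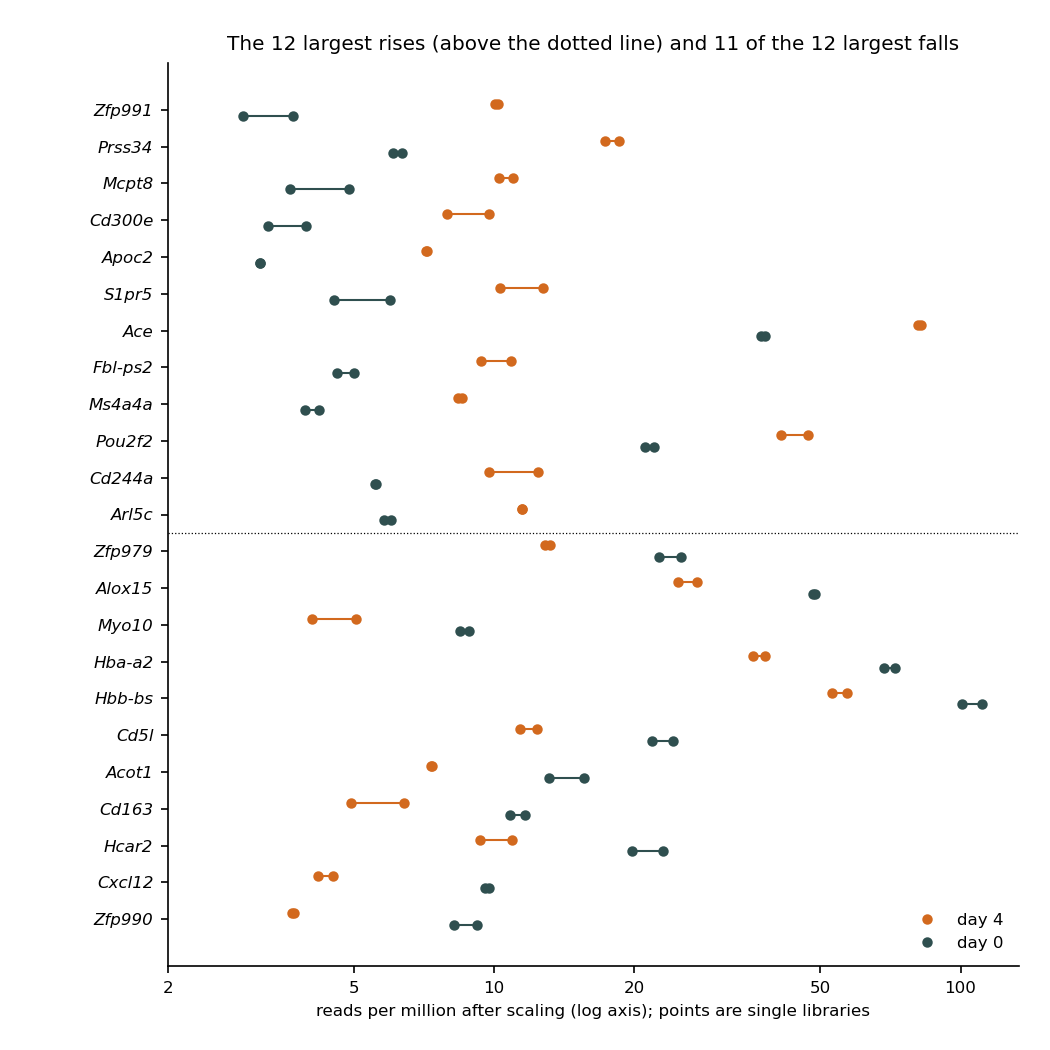
RPM (log axis) of the 12 genes that rose most and 11 of the 12 that fell most, among stable calls with a mean of at least 5 RPM. Each point is 1 library, with the day 4 pair drawn above the day 0 pair within a gene. The 23 genes were picked under a rule that left out genes whose libraries overlap between the groups.

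Genes of patrolling monocytes were higher at day 4. Of 27 tested, 16 rose and 1 fell, 14 and 1 of them with stable calls, and their median log2 change was 0.49, against 0.0048 over all tested genes. Ace, angiotensin-converting enzyme, stood at 82.2 and 81.1 RPM at day 4, against 38.01 and 37.3 RPM at day 0 (log2 fold change 1.11 ± 0.058, adjusted p = 1.19e-13). Each day 4 library lay more than 2-fold above either day 0 library, and the pairs within a day were nearly equal. Cd300e, an activating receptor of non-classical monocytes, stood at 7.91 and 9.74 RPM at day 4, against 3.95 and 3.28 RPM at day 0 (log2 fold change 1.26 ± 0.17, adjusted p = 5.01e-06). S1pr5, a sphingosine phosphate receptor that lets cells leave the marrow, stood at 12.7 and 10.3 RPM at day 4, against 5.99 and 4.53 RPM at day 0 (log2 fold change 1.12 ± 0.17, adjusted p = 3.33e-05). Their libraries were farther apart within a day than those of Ace, but did not overlap between days. Pou2f2, a transcription factor of B cells and monocytes, stood at 47.2 and 41.2 RPM at day 4, against 22.02 and 21.1 RPM at day 0 (log2 fold change 1.03 ± 0.082, adjusted p = 7.68e-10). Apoc2, a lipoprotein cofactor, stood at 7.14 and 7.198 RPM at day 4, against 3.15 and 3.14 RPM at day 0 (log2 fold change 1.16 ± 0.18, adjusted p = 3.55e-05). Cx3cr1, the fractalkine receptor, changed by 0.55. Ear2, a ribonuclease, was the 1 gene that fell, at 74.5 and 79.4 RPM at day 4, against 105 and 103 RPM at day 0 (-0.44 on the log2 scale).

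The classical monocyte list split in 2. Of 26 tested, 14 rose and 7 fell, 12 and 6 with stable calls, with a median log2 change of 0.28. Ccr2, the receptor through which monocytes leave the marrow, stood at 289 and 279 RPM at day 4, against 199 and 194 RPM at day 0 (log2 fold change 0.53 ± 0.031, adjusted p = 1.25e-12). F10, coagulation factor X, stood at 25.1 and 25.3 RPM at day 4, against 17.2 and 16.8 RPM at day 0 (log2 fold change 0.56 ± 0.083, adjusted p = 2.08e-05), and Irf8, a factor needed for monocyte development, at 48.1 and 49.9 RPM at day 4, against 36.4 and 33.2 RPM at day 0 (log2 fold change 0.50 ± 0.067, adjusted p = 6.14e-06). All 3 were higher in each day 4 library than in either day 0 library. Several of those that fell are also made by neutrophils: the lectin gene Chil3 changed by -0.16, the guanine deaminase gene Gda by -0.21 and the chemokine receptor gene Ccr1 by -0.31. Csf1r, the macrophage growth factor receptor, stood at 211 and 208 RPM at day 4, against 156 and 163 RPM at day 0 (log2 fold change 0.39 ± 0.035, adjusted p = 5.32e-09). Of 15 monocyte and dendritic progenitor genes 8 rose, all with stable calls, and 1 fell, Id2, whose adjusted p was 0.019. Several of these are shared with the monocyte and primary granule lists.

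Receptor families found on monocytes were also called in part. In the Ms4a family, which encodes tetraspan membrane proteins, 6 of 10 tested genes rose, 5 with stable calls, and 0 fell. Ms4a4a stood at 8.37 and 8.52 RPM at day 4, against 4.22 and 3.93 RPM at day 0 (log2 fold change 1.03 ± 0.13, adjusted p = 3.34e-06), and Ms4a6d at 23.3 and 24.8 RPM at day 4, against 13.3 and 13.8 RPM at day 0 (log2 fold change 0.82 ± 0.080, adjusted p = 2.97e-08), while Ms4a4c changed by 0.50. Each had its day 4 libraries clear above its day 0 libraries. Of 14 Trem and Cd300 receptor genes 4 rose and 3 fell, 2 and 1 with stable calls, and with library totals alone 5 rose and 1 fell. Cd300ld, beside Cd300e, stood at 21.3 and 20.9 RPM at day 4, against 13.9 and 13.3 RPM at day 0 (log2 fold change 0.63 ± 0.098, adjusted p = 4.64e-05), and Trem1, which amplifies neutrophil and monocyte activation, at 102 and 93.1 RPM at day 4, against 115 and 119.6 RPM at day 0 (log2 fold change -0.27 ± 0.047, adjusted p = 2.28e-04). The lectin receptors Clec4a1 and Clec4a3 rose by 0.71 and 0.72 on the log2 scale.

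**Figure D2:**
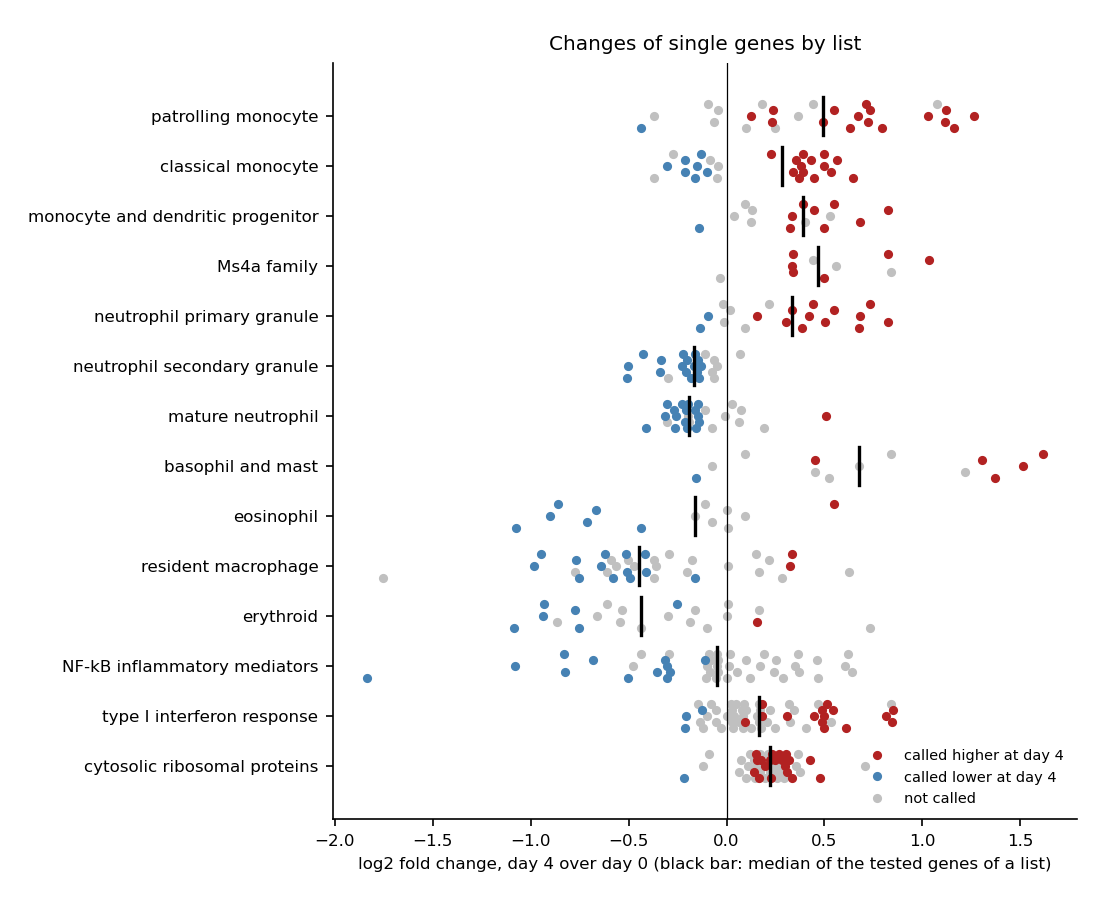
Log2 fold change of day 4 over day 0 for the tested genes of 14 lists, with the median of each as a black bar. Red genes were called higher and blue genes lower at day 4, and grey genes were not called.

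Granulocyte genes moved in opposite directions by stage. Of 19 primary granule genes 12 rose and 2 fell, 11 and 0 with stable calls, with a median of 0.33. Mpo, myeloperoxidase, whose promoter is printed above, stood at 1984 and 1991 RPM at day 4, against 1195 and 1199.8 RPM at day 0 (log2 fold change 0.73 ± 0.017, adjusted p = 2.03e-21). Elane, neutrophil elastase, stood at 779.8 and 796 RPM at day 4, against 492 and 496 RPM at day 0 (log2 fold change 0.67 ± 0.023, adjusted p = 2.19e-17). Prtn3, proteinase 3, which neighbours Elane on chromosome 10, stood at 566 and 578 RPM at day 4, against 346 and 368 RPM at day 0 (log2 fold change 0.68 ± 0.029, adjusted p = 1.52e-15). Within a day the libraries of these 3 genes were almost alike, and between days they were far apart. Ctsg, cathepsin G, stood at 156 and 158 RPM at day 4, against 90.9 and 86.2 RPM at day 0 (log2 fold change 0.83 ± 0.047, adjusted p = 7.75e-13). Together the 19 genes took 0.790% and 0.792% of reads at day 4, against 0.618% and 0.618% at day 0. Igsf6 and Rab27a, which fell by 0.10 and 0.14, lost their calls with library totals alone.

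Genes of later granulocyte stages were lower. Of 23 secondary granule genes 0 rose and 16 fell, 15 with stable calls, with a median of -0.17. Mmp8, neutrophil collagenase, stood at 403 and 392 RPM at day 4, against 558 and 574 RPM at day 0 (log2 fold change -0.51 ± 0.026, adjusted p = 8.36e-14), and Olfm4, a granule glycoprotein, at 979 and 944 RPM at day 4, against 1373 and 1354 RPM at day 0 (log2 fold change -0.50 ± 0.019, adjusted p = 2.07e-16). Orm1, an acute phase protein, changed by -0.43, and the transporter gene Abca13 by -0.34. Day 4 libraries lay below day 0 libraries for each of them. Of 27 mature neutrophil genes 1 rose and 16 fell, 0 and 11 with stable calls. Retnlg, a resistin-like protein, stood at 420.2 and 466 RPM at day 4, against 600.3 and 575 RPM at day 0 (log2 fold change -0.41 ± 0.047, adjusted p = 0.00103), and Il1b, interleukin 1 beta, at 63.2 and 63.1 RPM at day 4, against 80.95 and 75.97 RPM at day 0 (log2 fold change -0.31 ± 0.049, adjusted p = 4.85e-05). The 27 genes took 5.68% and 6.002% of reads at day 4, against 6.39% and 6.55% at day 0. The shares of these later granulocyte genes thus fell, while more of the monocyte genes above rose than fell. The part of that fall in the rise of monocyte genes was not tested.

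Basophil and eosinophil genes also went different ways. Of 13 basophil and mast cell genes 5 rose and 1 fell, 3 and 0 with stable calls. Prss34, a basophil protease, stood at 17.3 and 18.5 RPM at day 4, against 6.08 and 6.33 RPM at day 0 (log2 fold change 1.51 ± 0.18, adjusted p = 1.21e-06), and Mcpt8, another basophil protease, at 10.96 and 10.2 RPM at day 4, against 4.88 and 3.65 RPM at day 0 (log2 fold change 1.31 ± 0.21, adjusted p = 6.39e-05). Cpa3, carboxypeptidase A3, stood at 4.73 and 4.95 RPM at day 4, against 2.09 and 1.57 RPM at day 0 (log2 fold change 1.37 ± 0.29, adjusted p = 0.00193). For all 3, each day 4 library lay more than 2-fold above either day 0 library. The mast cell genes Cma1, Tpsb2 and Mcpt4 were not among the listed genes. Of 13 eosinophil genes 6 fell and 1 rose, 5 and 1 with stable calls. Hcar2, a receptor for hydroxycarboxylic acids, stood at 9.32 and 10.9 RPM at day 4, against 19.8 and 23.03 RPM at day 0 (log2 fold change -1.07 ± 0.11, adjusted p = 4.87e-08), and Alox15, a lipoxygenase that eosinophils and macrophages share, at 24.7 and 27.2 RPM at day 4, against 48.4 and 48.8 RPM at day 0 (log2 fold change -0.90 ± 0.068, adjusted p = 2.22e-10). Ear1 and Ear6, ribonucleases of eosinophils, changed by -0.86 and -0.71. Epx, eosinophil peroxidase, was the 1 that rose, at 41.8 and 42.5 RPM at day 4, against 28.3 and 29.2 RPM at day 0 (log2 fold change 0.55 ± 0.076, adjusted p = 8.43e-06), so genes of 1 list lay on both sides.

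Resident macrophage genes were mostly lower. Of 34 tested 13 fell and 2 rose, 11 and 2 with stable calls, with a median of -0.45. Cd163, the receptor for haemoglobin bound to haptoglobin, stood at 6.41 and 4.95 RPM at day 4, against 11.6 and 10.8 RPM at day 0 (log2 fold change -0.98 ± 0.17, adjusted p = 1.40e-04). Cd5l, a secreted protein of tissue macrophages, stood at 12.4 and 11.4 RPM at day 4, against 24.2 and 21.8 RPM at day 0 (log2 fold change -0.95 ± 0.11, adjusted p = 2.77e-07), and Fcna, a ficolin, at 13.2 and 15.03 RPM at day 4, against 24.1 and 23.6 RPM at day 0 (log2 fold change -0.75 ± 0.11, adjusted p = 3.02e-05). In all 3 the day 4 libraries lay far below those of day 0. The C1q chains, which start the classical complement pathway, each fell, with C1qa at 26.9 and 28.8 RPM at day 4, against 42.01 and 37.5 RPM at day 0, C1qb at 20.1 and 21.01 RPM at day 4, against 33.8 and 29.5 RPM at day 0 and C1qc at 16.7 and 19.00 RPM at day 4, against 25.5 and 28.02 RPM at day 0. Their log2 changes were -0.51, -0.62 and -0.58. Other members of the list did not pass the test, Vcam1, an adhesion molecule of marrow macrophages chosen after its values were seen, among them at 146 and 139.6 RPM at day 4, against 137 and 147 RPM at day 0 (log2 fold change 0.0085 ± 0.044, adjusted p = 0.94). The 2 that rose were Adgre1 (0.33) and Trf, transferrin (0.32), so the gate gene moved against most of its list.

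Some genes of red cells and of haem handling were called lower. Of 21 erythroid genes 6 fell and 1 rose, 5 and 0 with stable calls, 14 were not called, and of the 15 with whole reads 2 fell and 0 rose. The globin genes Hbb-bs and Hba-a2 stood at 53.1 and 57.1 RPM at day 4, against 101 and 111 RPM at day 0 and at 38.01 and 35.8 RPM at day 4, against 72.4 and 68.7 RPM at day 0, with log2 changes of -0.94 and -0.93. Both have near-identical copies and fractional reads, so their single values are uncertain. Klf1, a factor of red cell precursors, had 3 and 5 reads at day 4, against 2 and 8 reads at day 0, too few to be tested. Hmox1, haem oxygenase, stood at 86.4 and 84.1 RPM at day 4, against 125 and 118 RPM at day 0 (log2 fold change -0.51 ± 0.048, adjusted p = 1.88e-08), and Tfrc, the transferrin receptor, at 96.01 and 94.3 RPM at day 4, against 111 and 116 RPM at day 0 (log2 fold change -0.25 ± 0.050, adjusted p = 8.22e-04). In the haem and iron list 10 of 31 fell and 3 rose, 6 and 2 with stable calls, the list's median was -0.06, and with library totals alone 7 fell and 4 rose. Lrp1, the receptor for haem bound to haemopexin, was the largest called rise at 157 and 166 RPM at day 4, against 109 and 109 RPM at day 0 (log2 fold change 0.57 ± 0.040, adjusted p = 6.37e-11). Cxcl12, the chemokine that holds blood cells in marrow, stood at 4.18 and 4.505 RPM at day 4, against 9.55 and 9.76 RPM at day 0 (log2 fold change -1.13 ± 0.21, adjusted p = 3.95e-04), and was the 1 called gene of 14 in the stromal list.

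Inflammatory mediators fell in part. Of 44 NF-kB list genes 0 rose and 12 fell, 8 with stable calls, while the list's median was -0.05, and with library totals alone 2 rose and 11 fell. Cxcl2, a chemokine that draws neutrophils, stood at 23.1 and 22.5 RPM at day 4, against 39.3 and 41.98 RPM at day 0 (log2 fold change -0.83 ± 0.064, adjusted p = 3.67e-10). Cxcl1, its neighbour, was chosen after its values were seen, since its promoter is printed above, and stood at 0.273 and 0.294 RPM at day 4, against 1.199 and 1.34 RPM at day 0 (log2 fold change -1.84 ± 0.38, adjusted p = 0.00134). Ptgs2, inducible cyclooxygenase, stood at 31.8 and 25.7 RPM at day 4, against 49.5 and 52.1 RPM at day 0 (log2 fold change -0.83 ± 0.084, adjusted p = 8.41e-08), and Ccrl2, an atypical chemokine receptor, at 38.6 and 36.9 RPM at day 4, against 63.1 and 58.1 RPM at day 0 (log2 fold change -0.68 ± 0.060, adjusted p = 4.67e-09). All 4 had both day 4 libraries below both day 0 libraries. Of 20 chemokine genes 6 fell and 1 rose, 4 and 1 with stable calls, the riser being Ccl9, a monocyte chemokine, at 69.5 and 68.9 RPM at day 4, against 46.4 and 48.2 RPM at day 0 (log2 fold change 0.55 ± 0.057, adjusted p = 8.83e-08). Of 36 immediate early genes, which also respond to tissue handling, 7 rose and 4 fell, 4 and 1 with stable calls, and with library totals alone 10 rose and 2 fell, with Klf4 at 0.45 and Trib1 at -0.33.

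Interferon-induced genes rose in part. Of 55 type I genes 15 rose and 3 fell, 8 and 2 with stable calls, with a median of 0.16. Oasl2, an antiviral protein, stood at 11.3 and 11.6 RPM at day 4, against 6.26 and 6.38 RPM at day 0 (log2 fold change 0.85 ± 0.14, adjusted p = 8.54e-05), and Ifit3, another, at 10.2 and 8.08 RPM at day 4, against 4.96 and 5.301 RPM at day 0 (log2 fold change 0.81 ± 0.17, adjusted p = 0.00172). Day 4 libraries lay above day 0 libraries for both. Of 31 genes induced by interferon gamma 7 rose and 1 fell, 3 and 1 with stable calls. Cd274, which encodes the checkpoint ligand PD-L1, stood at 9.82 and 9.34 RPM at day 4, against 4.79 and 5.13 RPM at day 0 (log2 fold change 0.94 ± 0.13, adjusted p = 1.39e-05). Its day 4 libraries lay well above those of day 0.

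Genes that bear on how macrophages take up or spare lymphoma cells were called in both directions. Of 35 Fc receptor and phagocytosis genes 4 rose and 7 fell, 0 and 4 with stable calls, and with library totals alone 7 rose and 3 fell. The receptor gene Axl, which helps macrophages engulf dying cells, stood at 61.3 and 57.3 RPM at day 4, against 79.97 and 77.6 RPM at day 0 (log2 fold change -0.41 ± 0.058, adjusted p = 9.97e-06), and the integrin gene Itgb2, partner of Itgam, changed by -0.12. Fc receptors bind antibody-coated cells, and Sirpa on the macrophage reads Cd47 on the target. The Cd47 values given here are of the mouse gene in the sorted marrow cells, and the Raji cells were not measured. Fcgr1, the high affinity receptor, stood at 13.5 and 13.6 RPM at day 4, against 8.22 and 11.5 RPM at day 0 (log2 fold change 0.48 ± 0.13, adjusted p = 0.0134), with a largest adjusted p of 0.323 on leaving out 1 library, and Fcgr2b, the inhibitory one, at 189 and 179 RPM at day 4, against 166 and 164 RPM at day 0 (log2 fold change 0.15 ± 0.038, adjusted p = 0.00675), with a largest of 0.0876. Values for Fcgr3 (-0.029) and Fcgr4 (0.17) did not pass the test. Sirpa changed by 0.032 ± 0.023 and did not pass, though with library totals alone it did at 0.08. Cd47 stood at 521 and 516 RPM at day 4, against 576 and 572 RPM at day 0 (log2 fold change -0.15 ± 0.024, adjusted p = 8.95e-05). In the inhibitory receptor list 4 of 31 rose and 7 fell, 3 and 5 with stable calls, and with library totals alone 8 rose and 4 fell. Cd244a, a receptor of the SLAM family, stood at 9.78 and 12.4 RPM at day 4, against 5.55 and 5.59 RPM at day 0 (log2 fold change 0.97 ± 0.15, adjusted p = 3.81e-05), and Siglecg changed by 0.36.

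Lipid and lysosome genes moved in both directions. Of 30 LXR and PPAR list genes 9 rose and 4 fell, 6 and 2 with stable calls. Apoe, apolipoprotein E, stood at 536 and 535 RPM at day 4, against 340.5 and 344 RPM at day 0 (log2 fold change 0.65 ± 0.025, adjusted p = 2.49e-16), and Scd2, a desaturase, changed by 0.51. Acot1, an acyl-CoA thioesterase with fractional reads, stood at 7.31 and 7.35 RPM at day 4, against 13.1 and 15.6 RPM at day 0 (log2 fold change -0.96 ± 0.14, adjusted p = 1.65e-05). Of 42 lysosomal genes 9 rose and 4 fell, 7 and 3 with stable calls, and with library totals alone 14 rose and 4 fell. Ctss, cathepsin S, stood at 151 and 152 RPM at day 4, against 106 and 98.7 RPM at day 0 (log2 fold change 0.57 ± 0.040, adjusted p = 5.61e-11), while Ctse, cathepsin E, stood at 103 and 99.9 RPM at day 4, against 166 and 163 RPM at day 0 (log2 fold change -0.70 ± 0.044, adjusted p = 6.77e-12). The 2 cathepsins thus lay on opposite sides, each with no overlap between days.

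**Figure D3:**
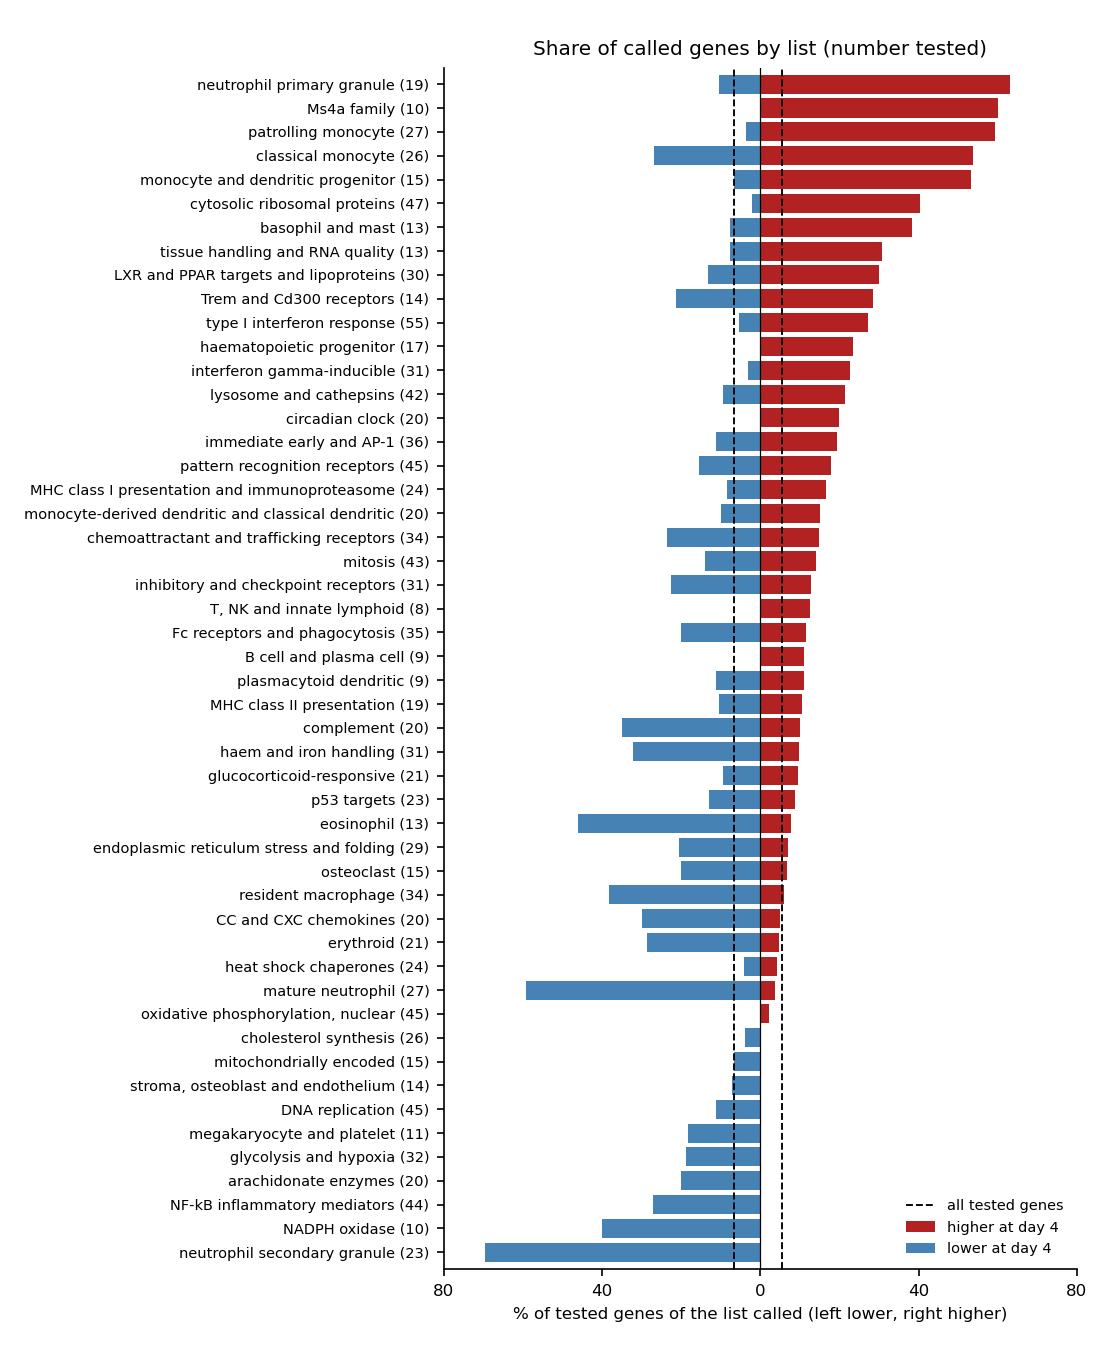
Share of the tested genes of each list called higher (right, red) or lower (left, blue) at day 4, with the number tested in brackets. Dashed lines mark the shares over all tested genes, 5.48% higher and 6.66% lower.

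Some of the remaining lists held a smaller share of called genes than the 12.1% over all tested genes, and others a larger one. Of 45 nuclear genes of oxidative phosphorylation 1 was called, of 26 cholesterol synthesis genes 1, of 24 heat shock genes 2 and of 15 mitochondrially encoded genes 1. None of these 5 was a stable call, and with library totals alone 6 heat shock genes were higher. Of 45 DNA replication genes 5 fell, 2 with stable calls, and 0 rose (11.1% called, close to the share over all tested genes). Ccne2, cyclin E2, changed by -0.45 and Cdc6 by -0.33. Of 43 mitosis genes 6 rose and 6 fell (27.9% called), 1 and 4 with stable calls, with Mki67 at -0.23 and Cenpa at 0.24. The ribosomal protein list had 19 genes called higher and 1 called lower among 47 (42.6%), 15 and 0 with stable calls, with a median of 0.22. All 47 had fractional reads, as can arise where reads are shared with pseudogenes, so none could be tested on whole reads. Among 13 genes of handling and RNA quality 4 rose and 1 fell (38.5% called), 2 and 0 with stable calls. Neat1, a nuclear RNA, stood at 449 and 467 RPM at day 4, against 304 and 316 RPM at day 0 (log2 fold change 0.56 ± 0.029, adjusted p = 1.19e-13) and Jun changed by 0.25. Their part in the changes above was not tested.

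For some of these genes the day 18 libraries were compared with those of day 4. With 2 libraries a day, the lack of a call does not show that levels were equal. Ace stood at 78.5 and 77.5 RPM at day 18 with no called difference from day 4 by limma (adjusted p = 0.467), and Pou2f2 had none at 45.6 and 43.5 RPM (adjusted p = 0.932). Ccr2 at 473 and 474 and Cd274 at 29.1 and 27.6 RPM were higher than at day 4 (adjusted p = 1.25e-16 and 5.14e-10). Mpo at 1393 and 1414 RPM and Prss34 at 2.57 and 3.79 RPM were lower than at day 4 (adjusted p = 1.31e-18 and 2.40e-11). Among genes low at day 4, Cxcl2 at 165 and 161 RPM, Alox15 at 92.5 and 91.1 RPM, Cd5l at 34.3 and 29.9 RPM and C1qb at 42.9 and 44.9 RPM were higher at day 18 than at day 4 (adjusted p = 3.28e-22, 8.48e-18, 2.36e-11 and 1.03e-10). Cxcl12 stood at 4.02 and 2.67 RPM, with no called difference from day 4 (adjusted p = 0.189).

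**Figure D4:**
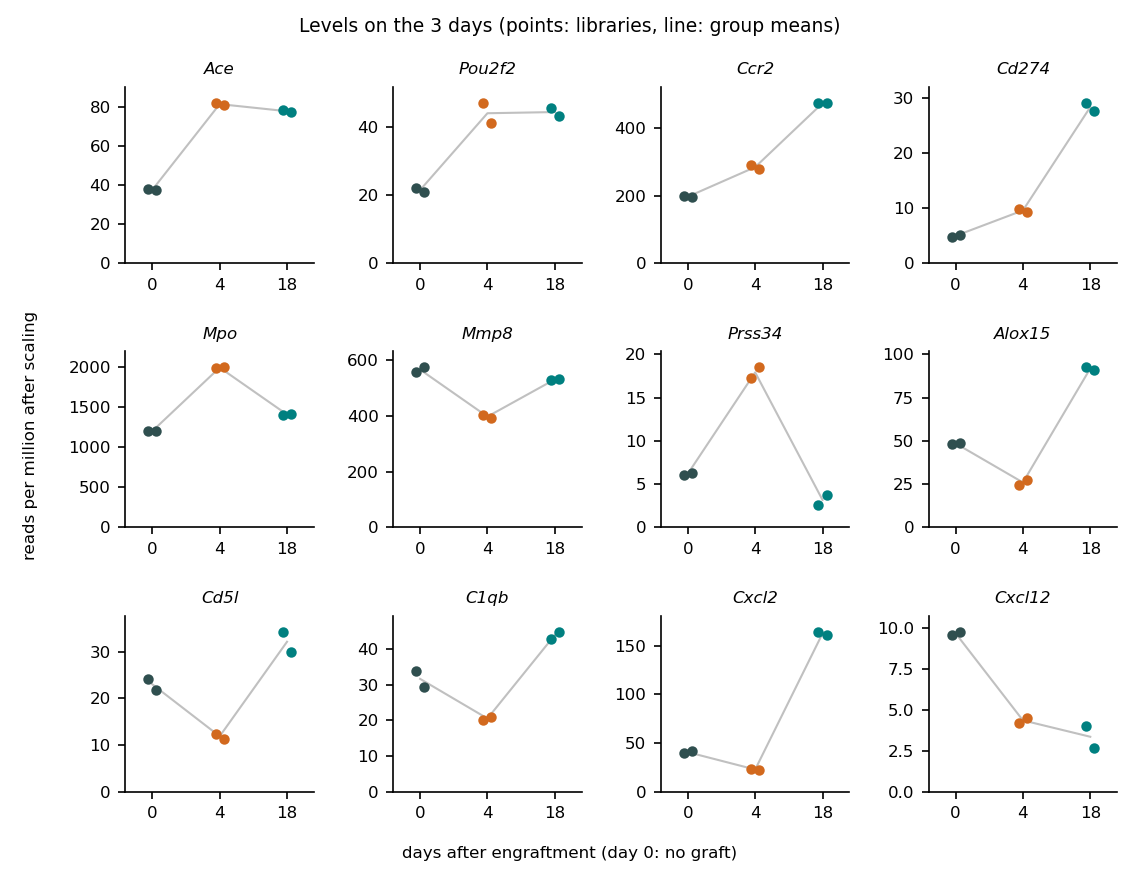
RPM on days 0, 4 and 18 (days spaced evenly, not to scale) for 12 genes described above, with points for single libraries and a line through group means. Levels of Mpo and Prss34 peak at day 4, while those of Alox15, Cd5l, C1qb and Cxcl2 are lowest there.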

How the data were processed

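Total RNA of sorted femur cells was sequenced with standard Illumina libraries, per the labels' protocols, and aligned with STAR 2.5.3a to mm10, per the submitters' processing notes. No source used here names the counting tool. The deposited values are RPKM, computed by the authors over the whole gene span: each library adds up to 1000000 once values are multiplied by that span in kilobases. Differences between low values gave the worth of 1 read, and so 20073043 to 23214553 assigned reads per library. Since 32.1% of tested genes held fractional reads, no count model was used.

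Values were turned into reads per 1000000 (RPM), scaled by the trimmed mean of M values, and tested where at least 2 libraries held 0.453 RPM. The groups were compared on log2(RPM + 0.1) by limma (version 3.58.1, R 4.3.3). A single fit held all 6 libraries, with a trend of the variance along the mean and robust moderation. P-values were adjusted by the Benjamini-Hochberg method over 14304 genes. Such fold changes understate those of low genes. The test was tried on simulated data. The comparison, the 52 gene lists and the naming rule were chosen with earlier results of these data known, and lists are described by counts and medians only. Named genes were the 12 largest stable rises and falls with a mean of at least 5 RPM. Genes whose libraries overlapped between the groups were left out of these. Also named were up to 4 called genes per list and direction with a mean of at least 2 RPM, and a few reported whatever the result. Others were chosen after their values were seen. Some genes under this rule are not reported here. Libraries of 1 group differed by more than sampling noise. Gene spans matched GENCODE M21 for 16922 symbols. Tables were read with Python 3.11.15 and pandas 2.3.3.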

Additional observations from a re-analysis of the deposited data

How the results depend on the processing

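Most of the 243 named genes were picked because they were called. Some alternatives changed the test but not the log2 change, so direction could not turn there. On the deposited RPKM scale 189 of the 243 lost their calls, and with one prior spread for all levels 236 did. Of the 243 named genes, 240 kept their direction under the alternatives tried. The other 3 were not called in any setting that turned them: Fcgr3 was at 0.024 (log2) with library totals alone, while on leaving out 1 library at a time Il2rg lay between -0.037 (without day 0 B) and 0.148, and Vcam1 between -0.045 (without day 0 A) and 0.062, with -0.024 without day 4 A. The count of 1736 called genes was 1722 (1261 higher, 461 lower) with library totals alone, and stayed between 1459 and 1796 with median-of-ratios factors, other pseudocounts, other filters, vooma weights or only the 4 compared libraries. It was 95 (65 higher, 30 lower) on the deposited RPKM scale and 0 (0 higher, 0 lower) by limma with one prior spread for all levels, where 2454 genes had an unadjusted p under 0.05. The cause of these shifts was not tested. With whole reads only, fewer genes entered and 1247 were called. Leaving out 1 library at a time gave 922 to 1594 calls, 467 to 703 higher and 455 to 891 lower, the lowest without day 0 B. The columns carry letters and not the replicate numbers of the labels, and same-letter libraries did not deviate together (correlations of -0.018, -0.042 and 0.0018). With the letter as a replicate block, 1656 genes were called, 756 higher and 900 lower. Depth limits low genes most; over all tested genes a log2 change had a median SE of 0.11.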

Other observations

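The following genes were chosen after their values were seen. 4931408C20Rik, a protein-coding gene of chromosome 1 in GENCODE, was listed at 0 in both day 4 libraries, while its recovered reads were 37 and 51 at day 0 and 25 and 22 at day 18. Adrb1, the beta-1 adrenergic receptor, stood at 2.501 and 2.74 RPM at day 4, against 0.3997 and 0.786 RPM at day 0 (log2 fold change 2.03 ± 0.39, adjusted p = 6.14e-04). Drd2, a dopamine receptor, stood at 2.501 and 2.301 RPM at day 4, against 5.42 and 7.07 RPM at day 0 (log2 fold change -1.33 ± 0.22, adjusted p = 9.22e-05). The day 4 and day 0 libraries of these receptors did not overlap. Clcf1, a cytokine of the interleukin 6 family, stood at 2.77 and 3.04 RPM at day 4, against 0.977 and 0.786 RPM at day 0 (log2 fold change 1.62 ± 0.30, adjusted p = 3.53e-04), and Thbs1, thrombospondin 1, at 242 and 228 RPM at day 4, against 368 and 362 RPM at day 0 (log2 fold change -0.63 ± 0.032, adjusted p = 8.36e-14).

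Genes of 1 stretch of chromosome 4 that holds many zinc finger genes were called in both directions. Of 25 tested genes between 145410245 (the start of Platr16) and 147809788 (the end of Zfp984) in mm10, 2 were higher and 6 lower at day 4 (32%, against 12.1% of all tested genes). Of these called genes, 4 had stable calls. Symbols starting with Zfp were held by 9 of the 25, a count that leaves out Znf symbols. Fractional reads were found in 22 of the 25, so their levels are uncertain. Zfp991 stood at 10.2 and 10.05 RPM at day 4, against 3.71 and 2.89 RPM at day 0 and at 10.1 and 9.39 RPM at day 18. Znf41-ps stood at 6.53 and 7.41 RPM at day 4, against 2.27 and 2.79 RPM at day 0 and at 6.304 and 7.52 RPM at day 18. Zfp990 stood at 3.69 and 3.73 RPM at day 4, against 8.201 and 9.203 RPM at day 0 and at 3.68 and 2.802 RPM at day 18, and Zfp979 at 12.9 and 13.2 RPM at day 4, against 25.2 and 22.6 RPM at day 0 and at 13.3 and 14.5 RPM at day 18. For these 4 genes limma called no difference between day 18 and day 4 (adjusted p = 0.866, 0.974, 0.555 and 0.622). Among the genes of the stretch called between day 4 and day 0, limma also called 1 between day 18 and day 4, Platr16 (adjusted p = 0.0469). The other tested genes of the stretch were not counted for day 18 against day 4. The stretch was chosen after the values were seen. The labels give 1 strain for all animals, and whether the animals of the groups differ in genome sequence there was not tested.

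The summed level of 4 Y-linked genes lay between 148 and 166 RPM in every library. Xist, another sex-linked gene, had 5.4 and 0 recovered reads at day 4, against 0 and 2 at day 0 and 1 and 3.9 at day 18. That was too few to be tested.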
